A study of Mus musculus with 6 samples.

Results

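The genes described here belong to 3 groups that act at the start of the cell division cycle: 4 subunits of the replication helicase (Mcm2, Mcm5, Mcm6 and Mcm7), the 3 D-type cyclins (Ccnd1, Ccnd2 and Ccnd3) and the 3 inhibitors of the Cip/Kip family (Cdkn1a, Cdkn1b and Cdkn1c). The members are all probe sets of the array whose annotation names exactly 1 gene and that gene is one of these. This gave 14 probe sets for 10 genes, of 12488 probe sets on the array and 8252 genes named by single-gene probe sets. Of them, 10 probe sets of 8 genes passed the filter on low signal and were tested. Mcm6, both Cdkn1b probe sets and 1 of the 2 Mcm5 probe sets lay under it.

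The study hybridised RNA of adrenal glands from 2 mouse strains to Affymetrix MG_U74Av2 arrays, with 3 arrays for BPH, the hypertensive strain ("Blood Pressure High"), and 3 for BPL, the hypotensive strain ("Blood Pressure Low"). The strain is the only difference between the groups that the labels name. Age, sex and the number of mice behind an array are not given in the sources used here, so p-values measure the spread between these arrays, which may be technical in part. Each probe set is a group of short oligonucleotides chosen to match transcript sequence, and its value is an intensity on a linear scale. The annotation names 1 gene for 10855 probe sets and several genes for 396.

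In the first phase of the cycle, D-type cyclins bind the kinases Cdk4 and Cdk6, which phosphorylate the retinoblastoma protein and free E2F transcription factors. The freed E2F factors switch on genes for DNA replication, the Mcm helicase subunits among them, while Cip/Kip proteins bind cyclin-kinase complexes and restrain them. Cdkn1a is a target of the tumour suppressor p53, and Cdkn1c is an imprinted gene, expressed from the maternal copy, that is needed for normal growth of the adrenal gland. In adult adrenal glands most cells are not dividing, and new cortical cells arise mainly near the capsule.

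Short stretches of promoter sequence are shown for the helicase genes whose windows hold letters of the E2F motif, since E2F factors are the known regulators of these genes. The promoter table (RefSeq, GRCm38.p6) holds 10 windows for 7 of the 10 genes, each of 300 bases, from 250 before to 50 after an annotated start. Ccnd1, Ccnd2 and Cdkn1c have no entry there. Capitals mark TTTCGCGC or TTTGGCGC, 2 forms of the E2F motif searched on both strands, and a run of 12 capitals is a pair of matches on opposite strands that overlap.
Mcm5, chr8:75109336-75109387, plus strand: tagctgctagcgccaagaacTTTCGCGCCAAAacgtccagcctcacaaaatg
Mcm6, chr1:128359784-128359835, minus strand: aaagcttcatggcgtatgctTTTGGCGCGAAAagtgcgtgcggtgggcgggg
Mcm7, chr5:138171840-138171887, minus strand: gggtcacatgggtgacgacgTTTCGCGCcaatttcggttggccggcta
Of the 10 windows 3 held either form, all 3 of helicase genes, against 0.813% of all 32851 promoter windows of this length in the table. Mcm6 held 1 further match in the same window, and the Mcm2 window and the other Mcm7 window held none of these letters.

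For Cdkn1a the window at an upstream start held a p53-type pattern (CATG, 6 bases of any kind, CATG, searched on both strands, where it reads the same), and it is shown because the p53 targets are compared with Cdkn1a later on.
Cdkn1a, chr17:29090911-29090964, plus strand: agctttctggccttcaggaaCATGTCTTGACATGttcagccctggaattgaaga
This pattern was found in 0.712% of the 32851 windows and in none of the other 9 windows of the genes described here. A match is a description of the sequence and no measure of binding.

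None of the 10 tested probe sets passed the threshold, a Benjamini-Hochberg adjusted p under 0.05 over all 7293 probe sets tested in limma, where 2.52% of all tested probe sets passed (1.56% higher and 0.96% lower in BPH). At an unadjusted p under 0.05 there were 4 of the 10, with 1 higher and 3 lower in BPH, against 19.3% of all tested probe sets (10.8% higher and 8.5% lower). The arrays of the strains did not overlap at 6 of the 10, with BPH above BPL at 2 and below at 4, against 26.5% of all tested (14.9% above and 11.6% below). The genes were picked with earlier results of these data known, so these shares say nothing particular about them. Differences are given as BPH minus BPL on the log2 scale. Of the 10 differences 3 were positive and 7 negative, against 53.3% and 46.7% of all tested. They ran from -0.83 to 0.48 with a median of -0.09, beside a median of 0.03 for all tested probe sets. The median standard error was 0.19 here and 0.19 over all tested.

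**Figure D1:**
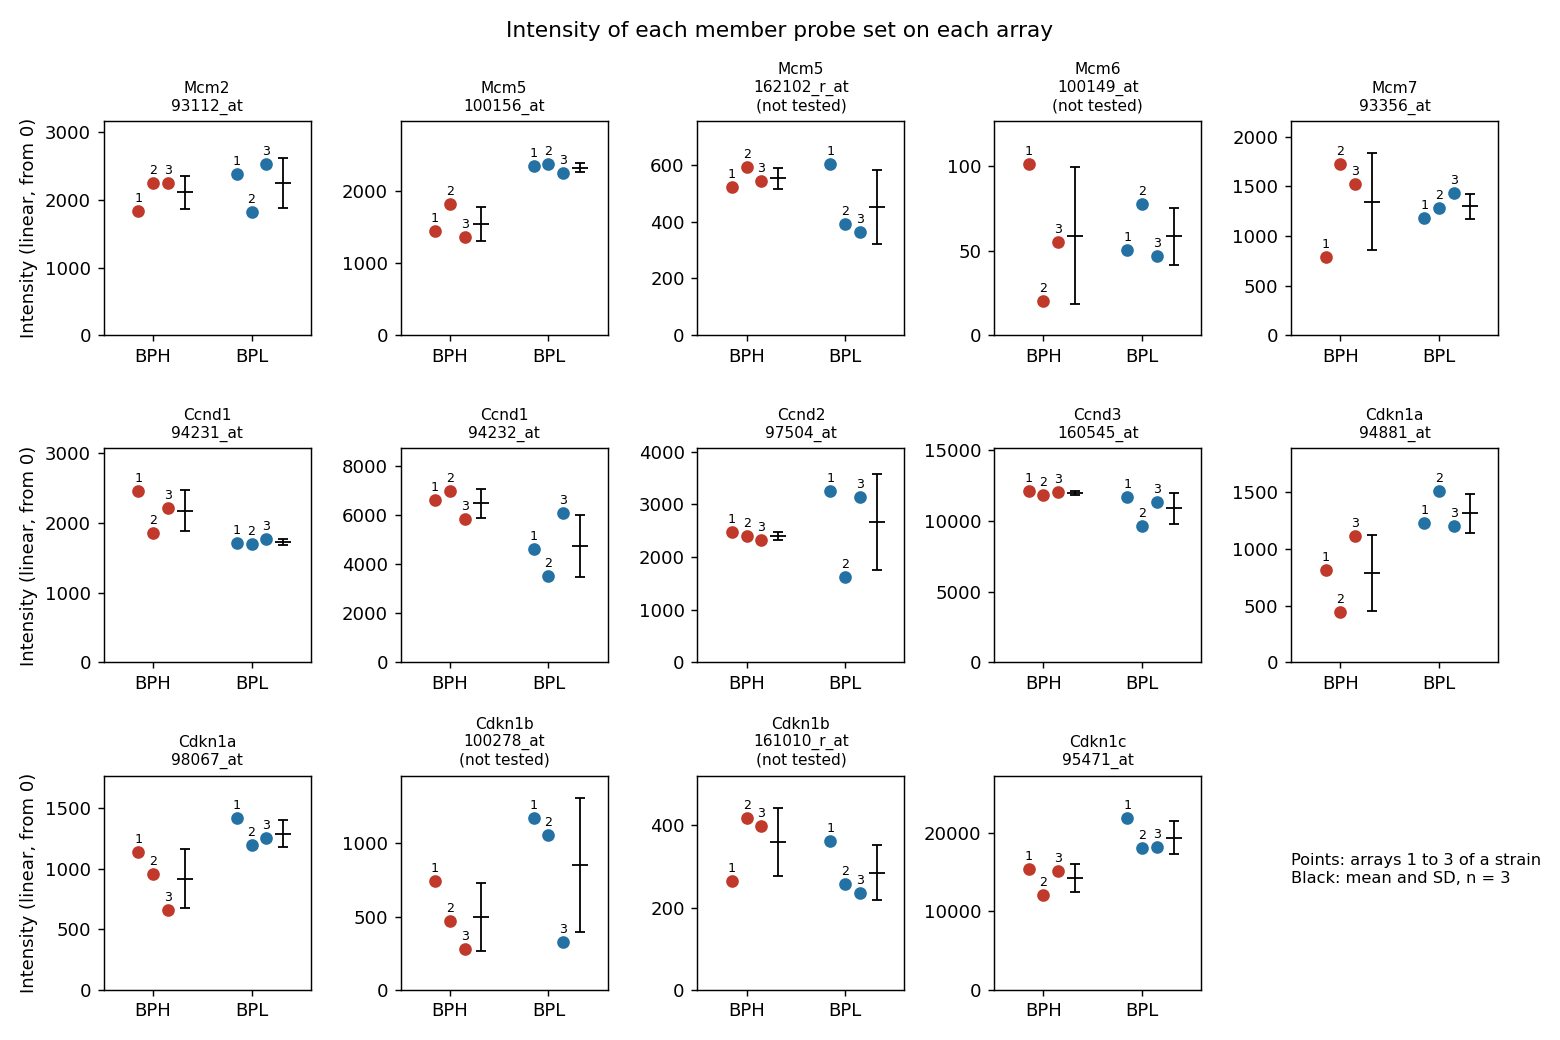
Intensity (vertical axis, linear and starting at 0) of the 14 probe sets on the 3 BPH arrays (red) and the 3 BPL arrays (blue), with the array number above each point and the mean and SD in black (n = 3). Mcm5 at 100156_at, both Cdkn1a probe sets and Cdkn1c lie lower on every BPH array than on every BPL array, and the lowest point of each D-type cyclin probe set is BPL 2.

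Among the helicase subunits none passed the test, with a lower signal of Mcm5 in BPH at 1 of its 2 probe sets and overlapping arrays for Mcm2 and Mcm7. Mcm5, a subunit of the ring-shaped helicase that is loaded on DNA before replication, had the smallest p of all 10 probe sets. At its probe set 100156_at the intensity was 1439, 1811 and 1363 on BPH 1, 2 and 3 and 2341, 2366 and 2242 on BPL 1, 2 and 3. All BPH arrays lay below all BPL arrays, and the BPL arrays lay close together. The means were 1537 ± 240 in BPH and 2316 ± 65.7 in BPL (SD, n = 3), 1.51 times as high in BPL. The log2 difference was -0.60 (SE 0.17, 95% confidence interval -0.98 to -0.22, limma adjusted p = 0.0947), with an unadjusted p of 0.00578 that ranked 443 of 7293.

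Another Mcm5 probe set, 162102_r_at, did not follow. The suffix r marks probe sets that Affymetrix designed under relaxed selection rules, and this one was too dim to be tested. Its intensity was 523, 593 and 541 on the BPH arrays and 602, 390 and 363 on the BPL arrays, which overlapped. The ratio of the 2 probe sets within an array differed by -0.93 on the log2 scale between the strains, with no overlap (exact two-sided permutation p = 0.1, the smallest that 3 arrays against 3 allow). Which of the 2 follows the Mcm5 transcript was not tested.

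Mcm2, the subunit through which the helicase also handles histones, had 1834, 2257 and 2249 on the BPH arrays and 2392, 1826 and 2531 on the BPL arrays. The groups overlapped, with BPH 1 and BPL 2 as the lowest arrays of their strains. The log2 difference was -0.08 (SE 0.18, interval -0.49 to 0.32, adjusted p = 0.837). Mcm7 had 792, 1723 and 1519 in BPH and 1176, 1286 and 1430 in BPL, so that 1 low array, BPH 1, set the spread of BPH (SD 489, against 128 in BPL). Its log2 difference was -0.02 (SE 0.30, interval -0.69 to 0.65, adjusted p = 0.977), and without BPH 1 it was 0.32. The intervals of Mcm2 and Mcm7 leave room for differences of up to 0.49 and 0.69 in size on the log2 scale.

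Mcm6 lay between 20.4 and 101 on all 6 arrays, below the floor intensity of 201.3 under which values were not distinguished. Its probe set, 100149_at, gave no difference that could be measured. The other 2 subunits of the hexamer are no members, and their values are given because the complex is made of 6 subunits. Mcm3 differed by 0.07 at 100062_at and by -0.04 at 160496_s_at, and Mcm4 by 0.55 (SE 0.42, adjusted p = 0.508). The Mcm4 arrays overlapped, with 826, 1498 and 1202 in BPH and 633, 498 and 1494 in BPL. Over the subunits tested, the Mcm5 difference at 100156_at was the 1 whose arrays did not overlap.

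By Pearson correlation of log2 intensity with Mcm5 (100156_at) over the 6 arrays, the most similar of 6559 candidate probe sets were those of Rasgrp2 (r = 0.989), Atp6v1d (r = 0.977) and Aldh9a1 (r = 0.976). Rasgrp2 encodes an activator of Ras-family GTPases, Atp6v1d a subunit of the proton pump of vesicles and Aldh9a1 an aldehyde dehydrogenase. Their log2 differences were -0.52 (adjusted p = 0.148), -0.60 (adjusted p = 0.0467) and -1.87 (adjusted p = 0.00186). A correlation over 6 arrays from 2 strains follows the strain difference, and 91 candidates exceeded an r of 0.9.

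None of the D-type cyclins passed, and the sign was positive for Ccnd1 and Ccnd3 and negative for Ccnd2. Ccnd1, the D cyclin most often induced by growth factor signals, had 2 tested probe sets. At 94232_at the intensity was 6625, 6973 and 5833 on the BPH arrays and 4621, 3534 and 6076 on the BPL arrays. BPL 3 lay above BPH 3, and the other 2 BPL arrays lay below all of BPH. The means were 6477 ± 584 and 4744 ± 1275 (SD, n = 3), 1.37 times as high in BPH, with a log2 difference of 0.48 (SE 0.19, interval 0.04 to 0.92, adjusted p = 0.219).

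At the other Ccnd1 probe set, 94231_at, the intensity was 2454, 1863 and 2209 in BPH and 1711, 1701 and 1773 in BPL. Here every BPH array lay above every BPL array, and the BPL arrays were within a narrow range (1728 ± 38.9, SD, n = 3). The log2 difference was 0.32 (SE 0.16, interval -0.04 to 0.69, adjusted p = 0.312). The 2 probe sets had the same sign, and the ratio between them did not separate the strains (exact two-sided permutation p = 0.6). Without BPL 3 the difference at 94232_at was 0.68, and without BPL 2 it was 0.29.

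Ccnd2, which is prominent in endocrine and gonadal cells, had 2477, 2389 and 2321 on the BPH arrays and 3246, 1619 and 3141 on the BPL arrays. The BPH arrays were tight (2396 ± 78.4, SD, n = 3), while BPL was split (2668 ± 910, SD, n = 3), with BPL 2 below and the other 2 above all of BPH. The log2 difference was -0.09 (SE 0.26, interval -0.67 to 0.49, adjusted p = 0.88). Leaving out BPL 2, the array that lay apart, gave -0.42 (limma unadjusted p = 0.0183, adjusted p = 0.195). Leaving out BPL 1 or BPL 3 gave 0.09 or 0.06 (limma adjusted p = 0.898 and 0.913).

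Ccnd3, which many resting and differentiated tissues express, had 12086, 11834 and 12033 in BPH and 11701, 9663 and 11320 in BPL. Every BPH array lay above every BPL array, but by little: the means were 11980 ± 133 and 10890 ± 1084 (SD, n = 3), a ratio of 1.10. The log2 difference was 0.14 (SE 0.12, interval -0.12 to 0.41, adjusted p = 0.537), and 0.06 without BPL 2. All 4 probe sets of the D-type cyclins were lowest on BPL 2, as were 29.5% of all tested probe sets. The kinase partner Cdk4, which is no member, differed by 0.06 at 160538_at and by 0.05 at 101017_at, with adjusted p-values of 0.849 and 0.899, and both were lowest on BPL 2 as well.

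**Figure D2:**
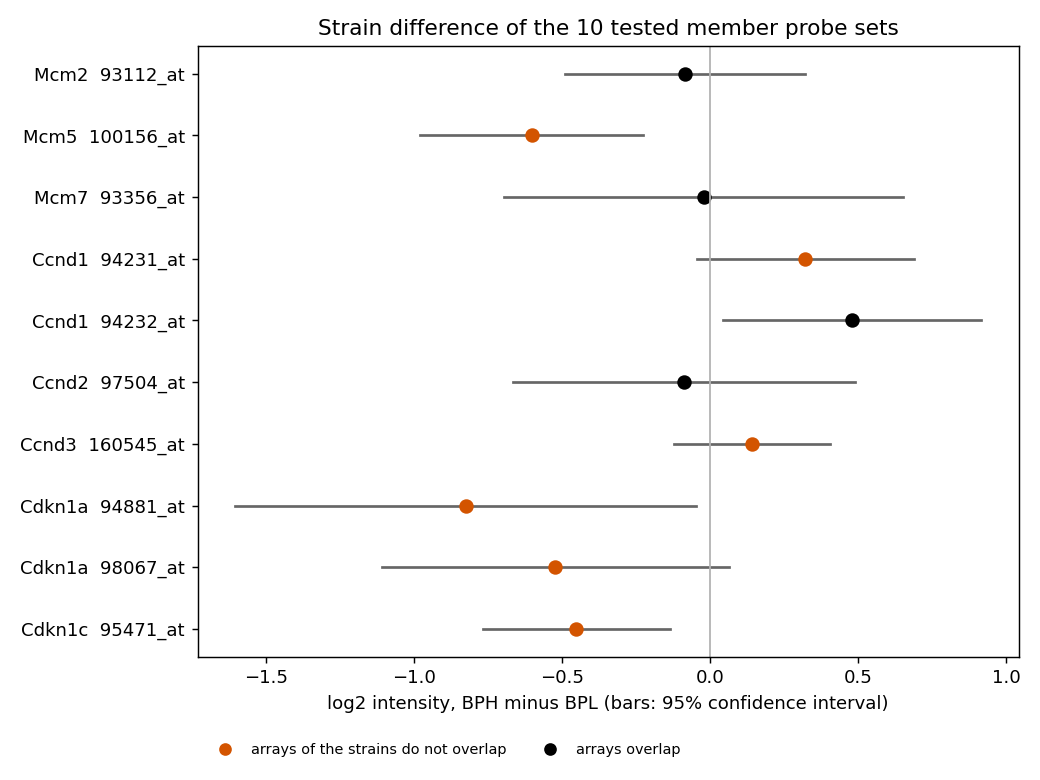
Difference in log2 intensity between BPH and BPL (horizontal axis, BPH minus BPL) for the 10 tested probe sets, with 95% confidence intervals from limma as bars. Orange points mark the 6 probe sets whose arrays do not overlap between strains. The intervals of Mcm5 (-0.98 to -0.22), Cdkn1c (-0.77 to -0.14), Cdkn1a at 94881_at and Ccnd1 at 94232_at do not reach 0, and none of the 10 passed after adjustment.

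The Cip/Kip inhibitors with tested probe sets, Cdkn1c and Cdkn1a, had lower means in BPH at all 3 probe sets, and none passed. Cdkn1c (p57), the imprinted inhibitor, had an intensity of 15356, 12104 and 15151 on the BPH arrays and 21814, 18108 and 18211 on the BPL arrays. The highest BPH array lay below the lowest BPL array. The means were 14200 ± 1821 and 19380 ± 2110 (SD, n = 3), 1.36 times as high in BPL. The log2 difference was -0.45 (SE 0.14, interval -0.77 to -0.14, adjusted p = 0.123), with an unadjusted p of 0.0103 in limma. In bulk tissue, fewer cells that make a transcript and less of it per cell cannot be told apart.

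Cdkn1a (p21), the inhibitor that p53 and other stress signals induce, had 2 tested probe sets with the same sign. At 94881_at the intensity was 814, 443 and 1111 in BPH and 1230, 1507 and 1202 in BPL. At 98067_at it was 1143, 959 and 658 in BPH and 1417, 1199 and 1256 in BPL. At both, every BPH array lay below every BPL array, by a small step between BPH 3 and BPL 3 at 94881_at and between BPH 1 and BPL 2 at 98067_at. The log2 differences were -0.83 (SE 0.34, interval -1.60 to -0.05, adjusted p = 0.234) and -0.52 (SE 0.26, interval -1.11 to 0.06, adjusted p = 0.307).

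Among the BPH arrays the 2 Cdkn1a probe sets did not rank alike. BPH 3 was the highest BPH array at 94881_at and the lowest at 98067_at. Without BPH 2 the difference at 94881_at was -0.46, and without BPH 3 that at 98067_at was -0.30. The ratio of the 2 probe sets did not separate the strains (exact two-sided permutation p = 0.7).

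Cdkn1b (p27), which holds quiescent cells out of the cycle, was not tested because the mean log2 intensity of each probe set lay under the filter. At 100278_at BPH 1, BPL 1 and BPL 2 lay above the filter intensity of 668.1. At 100278_at the intensity was 742.8, 467.6 and 276.5 in BPH and 1171, 1059 and 326 in BPL. At 161010_r_at it was 265, 417 and 399 in BPH and 361, 258 and 234 in BPL. The arrays overlapped at both, and BPH 3 and BPL 3 were the low arrays at 100278_at. In a fit without the filter the log2 differences were -0.69 (SE 0.67) and 0.34 (SE 0.26), opposite in sign, with adjusted p-values of 0.684 and 0.663.

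The fluidics station, the unit that washed and stained the arrays, was not balanced. The run files place BPH 1 and BPH 2 on station 2 and BPH 3 with all BPL arrays on station 1. A fit that blocks on the station, and one restricted to station 1, both leave BPH 3 against the 3 BPL arrays. Each gave -0.77 for Mcm5 (100156_at), -0.35 for Cdkn1c, -0.23 and -0.97 for Cdkn1a at 94881_at and 98067_at, and 0.35 and 0.33 for Ccnd1 at 94231_at and 94232_at. They gave -0.13 for Ccnd2, 0.15 for Ccnd3, 0.013 for Mcm2 and 0.23 for Mcm7. The sign of the Mcm2 and Mcm7 differences turned, and no probe set of the 10 passed.

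**Figure D3:**
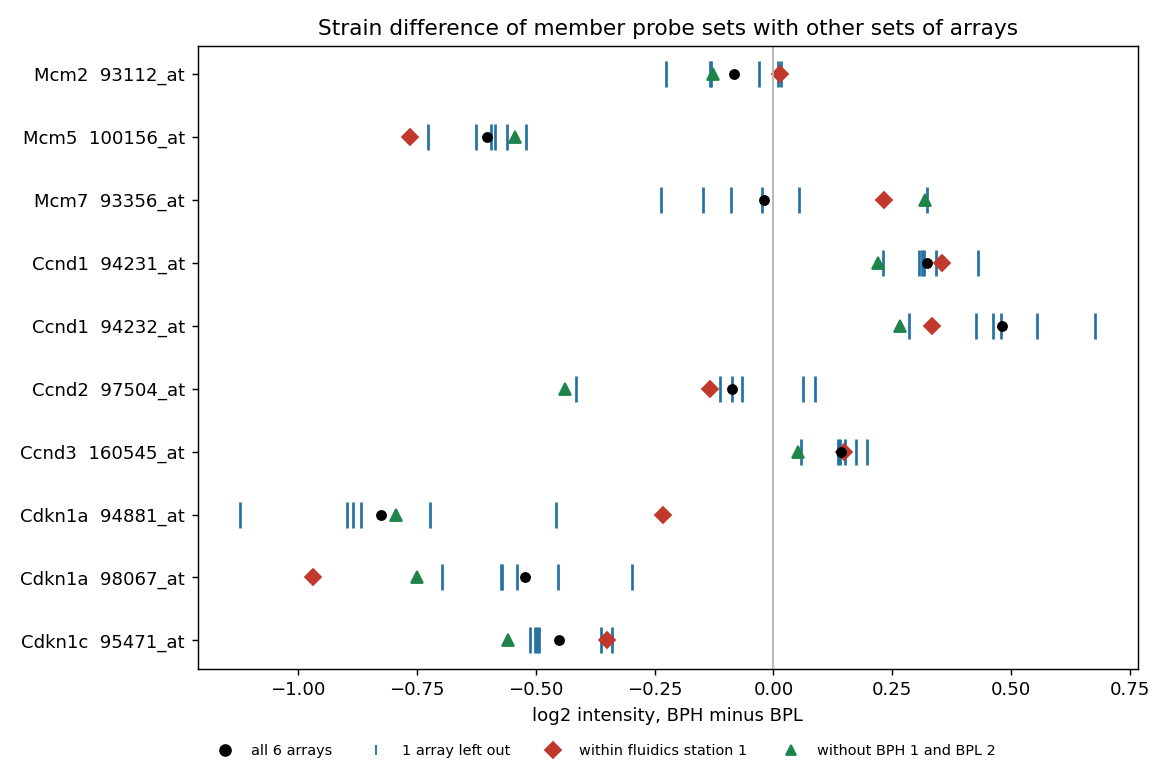
Log2 difference (horizontal axis, BPH minus BPL) of each tested probe set with all 6 arrays (black), with 1 array left out (blue ticks), within fluidics station 1 (red) and without BPH 1 and BPL 2 (green). Mcm5, Ccnd1, Ccnd3, Cdkn1a and Cdkn1c keep their sign at every point drawn, while Mcm2, Mcm7 and Ccnd2 fall on both sides of 0.

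Other tissue in the samples moved with strain and with single arrays. Markers of brown fat (7 of 7 on the array, none below the floor on all arrays) summed to between 37230 and 64580 on BPH arrays and between 101100 and 293800 on BPL arrays, with BPL 2 highest. Of these, 5 were tested, all 5 had a lower value in BPH, 4 had an unadjusted p under 0.05 in limma and 1 passed. Skeletal muscle markers (13 of 13 on the array, 1 below the floor on all arrays) summed to 163200 on BPH 1 and 185300 on BPL 2, against 10270 to 25220 on the other 4 arrays. Medulla markers (9 of 10 on the array) summed to between 264600 and 326400 in BPH and between 150400 and 300800 in BPL, again lowest on BPL 2. Of 9 tested medulla markers 8 had a higher value in BPH, 5 had an unadjusted p under 0.05 in limma and 1 passed. Fibroblast markers (6 of 6 on the array) summed to between 65550 and 66210 in BPH and between 53650 and 57460 in BPL, and lymphocyte markers (8 of 9) to between 5770 and 7107 in BPH and between 7160 and 9841 in BPL, both sums without overlap. In mean log2 intensity, where bright genes weigh less, the strains overlapped for both. It was 12.81, 13 and 12.91 in BPH and 12.74, 12.9 and 12.78 in BPL for fibroblast markers. For lymphocyte markers it was 8.88, 8.85 and 9.13 in BPH and 9.15, 8.99 and 9.15 in BPL. None of the 6 fibroblast and 3 lymphocyte markers tested passed in limma, with 2 and 1 at an unadjusted p under 0.05, against 19.3% of all tested probe sets. Of the fibroblast markers 3 were higher and 3 lower in BPH, and all 3 lymphocyte markers were lower. Such a p was also found for 4 of 7 macrophage, 2 of 4 smooth muscle, 2 of 8 endothelium and 1 of 6 general fat markers. None of these passed, signs were mixed in each, and their sums overlapped between strains. Cortex markers (9 of 10) summed to between 667300 and 780900 in BPH and between 669600 and 735700 in BPL. Of the 9 tested, 6 were higher and 3 lower in BPH, 1 had an unadjusted p under 0.05 in limma and none passed. Star, the cholesterol carrier that defines steroid-making cells, lay between 86782 and 100622 on the 6 arrays, while kidney markers were too dim to be tested.

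BPL 2 is both the array with the most brown fat and muscle signal and the lowest for every D-type cyclin probe set. At Ccnd1 94231_at it was lowest by a small step only, with 1701 against 1711 on BPL 1. The differences without BPH 1 and BPL 2 are therefore given. They were -0.54 for Mcm5 (100156_at), -0.56 for Cdkn1c, -0.79 and -0.75 for Cdkn1a at 94881_at and 98067_at, 0.22 and 0.27 for Ccnd1 at 94231_at and 94232_at, -0.44 for Ccnd2 and 0.05 for Ccnd3. Mcm2 gave -0.13 and Mcm7 0.32. The part of brown fat, medulla, fibroblasts, lymphocytes and station in these values was not tested.

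Other genes of the same pathways were compared by count and median. Of all tested probe sets 2.52% passed, and 19.3% had an unadjusted p under 0.05 in limma (10.8% higher and 8.5% lower in BPH). Differences were positive for 53.3% and negative for 46.7% of all tested. The replication list holds further helicase, origin, polymerase and nucleotide genes, of which 22 of 38 on the array were tested, with 28 probe sets. None passed, with 1 at an unadjusted p under 0.05 in limma, 14 differences were positive and 14 negative, and the median was -0.02. That median lay on both sides of 0 over the alternatives, from -0.06 without BPH 2 to 0.062 without BPL 3 and 0.10 with the filter at the 60th percentile. Rpa1, a subunit of the protein that coats single-stranded DNA, had 0.75 (SE 0.32, adjusted p = 0.249). The helicase activator Cdc45 had -0.39 (adjusted p = 0.312), the origin subunit Orc4 0.40 (adjusted p = 0.35) and the sliding clamp Pcna 0.24 (adjusted p = 0.466). On the replication list the arrays of all 4 overlapped between strains.

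Of other regulators of the first phase, 18 of 22 genes on the array were tested, with 21 probe sets. None passed and 1 had an unadjusted p under 0.05 in limma, with 17 positive differences, 4 negative and a median of 0.10. Leaving out BPL 2 turned the median to -0.02, leaving out BPL 3 gave 0.18, and the station fits gave 0.19. Tfdp1, the partner with which E2F factors bind DNA, came closest. Its probe set 101958_f_at had 2517, 2800 and 2314 in BPH and 1851, 1661 and 1768 in BPL, without overlap (0.53, SE 0.15, adjusted p = 0.0985), while 101959_r_at gave 0.21. The retinoblastoma gene Rb1 had -0.81 at 97948_at (SE 0.39, adjusted p = 0.297), the inhibitor of Cdk4 and Cdk6 named Cdkn2c 0.29 (adjusted p = 0.323), and Mnat1, a subunit of the kinase that activates the cell cycle kinases, 0.40 at 161557_at (adjusted p = 0.358). Mnat1 had 0.49 at 98979_at. Rb1 had -0.22 without the filter at 161858_f_at, which was too dim to be tested.

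Of 29 mitosis genes on the array 14 were tested, with 15 probe sets, and the other 15 genes were too dim. None passed and 0 reached an unadjusted p under 0.05 in limma, with 4 positive and 11 negative differences and a median of -0.20, which was -0.11 without BPL 3, -0.12 without BPH 1 and BPL 2 and -0.10 without the filter. Ube2c, which helps to destroy mitotic cyclins, had 0.89 (SE 0.44, adjusted p = 0.305), the mitotic kinase Plk1 -0.38 at 161292_f_at (adjusted p = 0.41), the anaphase activator Cdc20 -0.22 (adjusted p = 0.445) and the kinase Cdk1 1.06 (SE 0.74, adjusted p = 0.466). Plk1 had -0.27 at 101350_g_at, and 0.11 without the filter at 93099_f_at, which was too dim to be tested. For Cdk1 the arrays overlapped widely, with 1548, 673 and 1106 in BPH and 323, 207 and 1882 in BPL.

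The p53 targets other than Cdkn1a held the 1 gene that passed on any of these lists. Of 17 genes on the array 13 were tested with 1 probe set each, 10 positive and 3 negative, with a median of 0.13. An unadjusted p under 0.05 in limma was found for 3 of them, 2 higher and 1 lower in BPH. The median was 0.28 without BPL 3, 0.06 without BPH 2, 0.064 without BPL 2, 0.07 without BPL 1 or without both BPH 1 and BPL 2, and 0.023 in the station fits. Btg2, an antiproliferative gene that is also an early response gene, was higher in BPH, with 9763, 11059 and 13036 in BPH and 6240, 7444 and 7024 in BPL. The arrays did not overlap, and the log2 difference was 0.70 (SE 0.14, adjusted p = 0.0378). The call was lost when blocking on the station or keeping station 1 alone, where no gene of the lists passed, and without BPH 1, BPH 2, BPH 3 or BPL 1.

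Further p53 targets lay on either side of 0. Ddit4, a stress-induced inhibitor of mTOR signalling, had 0.74 (SE 0.22, adjusted p = 0.114), and Mdm2, the ligase that degrades p53, had 0.33 (adjusted p = 0.287), both without overlap. Phlda3, an inhibitor of Akt, had -0.49 (adjusted p = 0.246), with overlap. The 2 Cdkn1a probe sets, at -0.83 and -0.52, thus had the opposite sign to Btg2, Ddit4 and Mdm2 and the same sign as Phlda3, and of these 5 genes Btg2 alone passed.

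Imprinted genes were listed because Cdkn1c is one. Of 21 on the array 17 were tested, with 23 probe sets, 14 positive and 9 negative and a median of 0.18. The median was 0.10 without BPH 2, 0.12 with an offset in place of the floor and 0 without the filter on low values. None passed, and 5 higher and 1 lower of the 23 probe sets had an unadjusted p under 0.05 in limma, against 10.8% and 8.5% of all tested. Peg3, a zinc finger gene expressed from the paternal copy, had 0.66 at 96765_at (SE 0.17, adjusted p = 0.0776), 0.71 at 101451_at and 0.21 at 161316_f_at. Its arrays did not overlap at the first and second of these.

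The maternally expressed noncoding RNA gene Meg3 had -0.63 at 160173_at (SE 0.21, adjusted p = 0.151) and -0.10 at 160172_at, and its arrays overlapped at both. Dlk1, the paternally expressed neighbour of Meg3 that encodes a membrane protein of precursor cells, had 0.85 (SE 0.33, adjusted p = 0.204) and Mest 0.57 (SE 0.23, adjusted p = 0.218), both with overlap. Dlk1 had 37753, 22874 and 33304 in BPH and 15308, 11056 and 29045 in BPL, so BPL 3 lay within the BPH range. Without BPL 3, Dlk1 (1.24), Nnat (0.88) and Peg3 at 96765_at (0.85) passed, and without BPL 2, Meg3 at 160173_at (-0.85) passed. Cdkn1c, at -0.45, did not pass when any of the 6 arrays was left out.

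**Figure D4:**
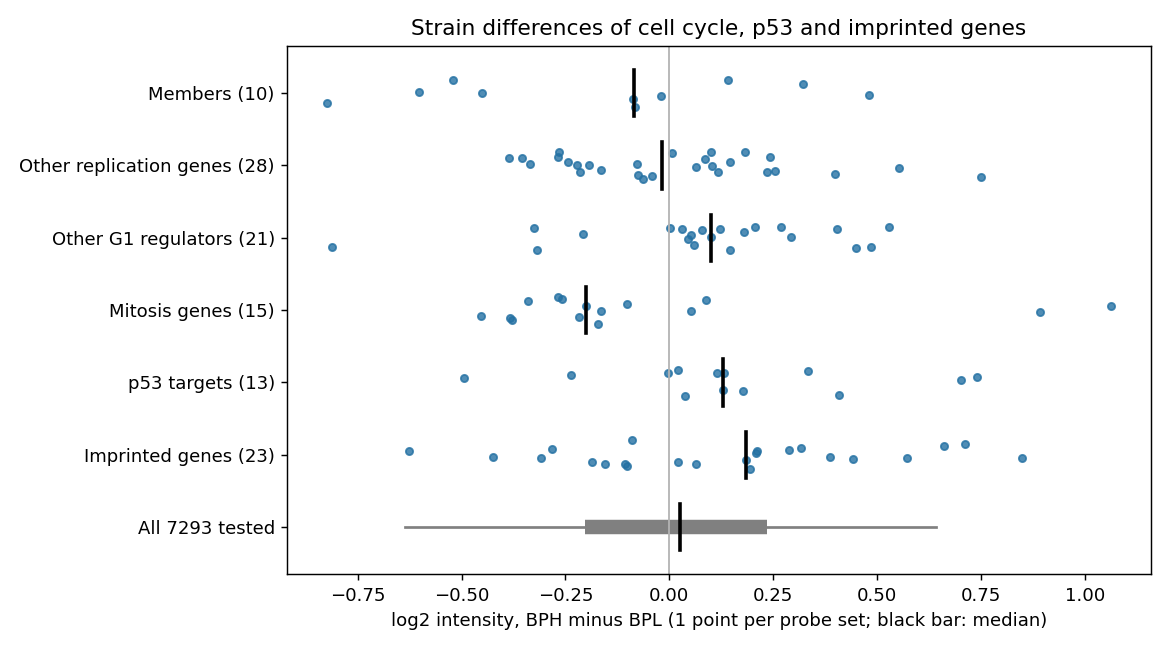
Log2 difference (horizontal axis, BPH minus BPL) of each tested probe set of the members and of the 5 lists, 1 point per probe set, with the median of each as a black bar. The lowest row gives all 7293 tested probe sets, as the range from the 5th to the 95th percentile (-0.64 to 0.64, thin line), the middle 50% (-0.20 to 0.23, thick bar) and the median (0.03). List medians lie between -0.20 for mitosis genes and 0.18 for imprinted genes with all 6 arrays.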

How the data were processed

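The table deposited by the authors holds linear intensities of 6 arrays. How the authors summarised probes into probe sets was not stated in the labels or run files. The arrays had been scaled before deposit: the mean after trimming 2% at each end lay between 2501.3 and 2501.5. The fluidics station is from the deposited run files.

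Without rescaling, intensities below 201.3, the 20th percentile of the table, were raised to it before taking log2. The 66 control probe sets and those whose mean floored log2 intensity lay under the 40th percentile of the table (668.1) were left out, which kept 7293. The floor understates differences of dim genes. BPH minus BPL was fitted with lmFit and a trended eBayes (limma 3.58.1, R 4.3.3). All tests are two-sided. Means and SDs are of intensities without the floor. Precision is limited by having 3 arrays per strain.

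On simulated data for this comparison over 7293 probe sets, the fit called 51% of changes of 1 and 94% of changes of 2 on the log2 scale. There were 200 changed probe sets, and 6 unchanged ones were called. The simulated noise was normal and independent between arrays and probe sets, without the station imbalance or shared tissue differences, so these rates may not hold for these arrays. Gene names are the platform annotation's (1 gene for 10855 probe sets, several for 396, none for 1237), updated by gene number for 10839. Promoter sequences are from RefSeq. The members and the gene lists were chosen with earlier results of these data known. All probe sets of the members are named, and of each list the 4 genes with the smallest p and any that passed. Mcm3, Mcm4 and Cdk4 were added after their values were seen. Alternatives were other normalizations, floors, filters and variance models, blocks for replicate number and station, a threshold of 0.01, leaving out each array, and, chosen after seeing the data, leaving out BPH 1 and BPL 2.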

Additional observations from a re-analysis of the deposited data

How the results depend on the processing

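No member probe set passed under any of the 19 alternatives tried, and Mcm5 (100156_at), Cdkn1c, Ccnd3 and both probe sets of Ccnd1 and Cdkn1a kept their sign in all that tested them. The alternatives are not independent checks. The threshold of 0.01 uses the same fit and could not add a call, and the 2 station fits give the same member differences. The count of all probe sets that passed, 184, was 52 without the filter, 83 without the intensity trend, 18 with the station as a block, 7 within station 1 and 48 at an adjusted p under 0.01, and with 1 array left out it ran from 42 (without BPH 2) to 361 (without BPL 3). It was 83 without BPH 1, 49 without BPH 3 and 94 without BPL 1. On the 5 lists together 1 probe set passed, that of Btg2, against 0 under each of those 5 alternatives and 0 with the replicate number as a block, and from 0 to 4 with 1 array left out. Mcm7 turned positive under quantile normalization (0.012), scaling to one median (0.005), when blocking on the station or keeping station 1 alone (0.23), and without BPH 1 and BPL 2 (0.32). Mcm2 turned in the same 2 station fits (0.013). With 1 array left out, Mcm2 ran from -0.23 to 0.016, Mcm7 from -0.24 to 0.32 and Ccnd2 from -0.42 to 0.087. Over the alternatives the list medians ran from -0.06 to 0.10 for replication, -0.023 to 0.19 for regulators of the first phase, -0.27 to -0.10 for mitosis, 0.023 to 0.28 for p53 targets and 0 to 0.22 for imprinted genes. The labels do not say whether the replicate numbers pair the arrays. Deviations from the strain means correlated at -0.22, -0.08 and 0.012 for same-numbered arrays, and from -0.085 to 0.156 for differently numbered ones. Deviations within a strain depend on each other, so these values cannot decide whether the numbers pair the arrays. With the replicate block 124 probe sets passed, 0 of them members. Low signal limits Mcm6, which lay below the floor on all 6 arrays, and Cdkn1b, whose probe sets lay over the floor but had means under the filter. Having 3 arrays per strain limits every value.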
